A study of Mus musculus with 8 samples.

Results

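Foxp1 held 13 of the 1627 rows in 4 deposited lists of cryptic transcription initiation. Such initiation means capped nascent RNA 5′ ends mapped inside genes and away from annotated starts. The 13 were 9 of 976 in the larger list of old liver, 2 of 425 in the larger list of young liver, 2 of 216 in the stricter list of old liver and 0 of 10 in that of young liver. An interval in more than 1 list counts in each, and the 2 rows of the stricter old list repeat 2 of the 9. The intervals were chosen by position, as rows whose centre lay in the GENCODE M21 body of Foxp1 (ENSMUSG00000030067.17, minus strand of chromosome 6, from 98925338 to 99522721 in mm10), and the lists themselves had been selected on a deposited fold of at least 10 between the ages. The study used PRO-cap, in which engaged polymerases are run on in isolated chromatin and the capped 5′ ends of their RNA are sequenced, on frozen liver of C57/BL6J mice. The labels describe 4 old samples (22 to 25 months) and 4 young samples (2 to 4 months), each with 2 females and 2 males, all fed standard chow without restriction. Young mice came from Jackson Laboratories and old mice from the colony of the National Institute on Aging, so age and source cannot be told apart. Each list carries 1 pooled value per interval, and whether males contributed to the larger lists is not settled by the labels, so ages could not be tested against a spread between animals and every value here is a description.

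Foxp1 encodes a transcription factor of the FOXP branch of the forkhead family. Proteins of this branch carry a glutamine-rich amino-terminal region, a zinc finger and a leucine zipper through which they pair with each other, and a forkhead domain near the carboxyl terminus that binds DNA, and they act mainly as repressors. FOXP1 is known for its part in B lymphocyte development and in keeping T lymphocytes quiescent, and in hepatocytes it has been described as restraining genes of glucose production. The gene is transcribed from many alternative starts, and isoforms that lack the amino-terminal region are known.

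The 11 intervals of the larger lists are numbered here from 5′ to 3′ along the gene, as old rows 1 to 9 and young rows 1 and 2. All lay in introns around the 2 exons that open the long reading frame, which are printed here with the exon that opens the short one, because each interval is described by which of them lie beyond it. In GENCODE M21 the long frame starts at 99163018 in 13 transcripts and the short frame at 99016647 in 8. Capitals mark the start codon in the first coding exon of each frame and the longest run of glutamine codons in coding exon 2.
Coding exon 1 of Foxp1-204 (chr6:99162839-99163018, minus strand, mm10): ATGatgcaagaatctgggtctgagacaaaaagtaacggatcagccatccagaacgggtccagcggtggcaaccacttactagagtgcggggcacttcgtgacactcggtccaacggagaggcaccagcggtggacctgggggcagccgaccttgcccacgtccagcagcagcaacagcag
Coding exon 2 of Foxp1-204 (chr6:99075854-99076045, minus strand, mm10): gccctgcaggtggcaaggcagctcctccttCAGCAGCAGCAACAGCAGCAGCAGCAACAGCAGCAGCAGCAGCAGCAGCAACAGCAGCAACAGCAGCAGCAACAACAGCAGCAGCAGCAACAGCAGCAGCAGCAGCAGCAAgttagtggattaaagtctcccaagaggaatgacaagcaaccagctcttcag
Coding part of the opening exon of Foxp1-230 (chr6:99016528-99016647, minus strand, mm10): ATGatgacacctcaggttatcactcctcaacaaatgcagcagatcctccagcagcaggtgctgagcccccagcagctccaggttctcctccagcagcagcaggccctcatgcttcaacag

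Coding exon 2 is the glutamine exon of the gene, in Foxp1-204 with 41 glutamine codons among 64 and an unbroken run of 37. Foxp1-206, Foxp1-221, Foxp1-222 and Foxp1-226 carry a shorter form of it that begins further 3′, to which these counts do not apply. By translation of the annotated transcripts, Foxp1-204 encodes 705 residues in 16 coding exons. Foxp1-230 encodes 576 residues in 14 coding exons, identical to the end of the 706-residue protein of Foxp1-207 and without its opening 130 residues. The motif searched for as part of the DNA-reading helix of the forkhead domain lay in coding exon 12 of the long frame, from 98944619 to 98944720. Every one of the 11 intervals lay 5′ of the short start codon and of the forkhead exons.

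**Figure D1:**
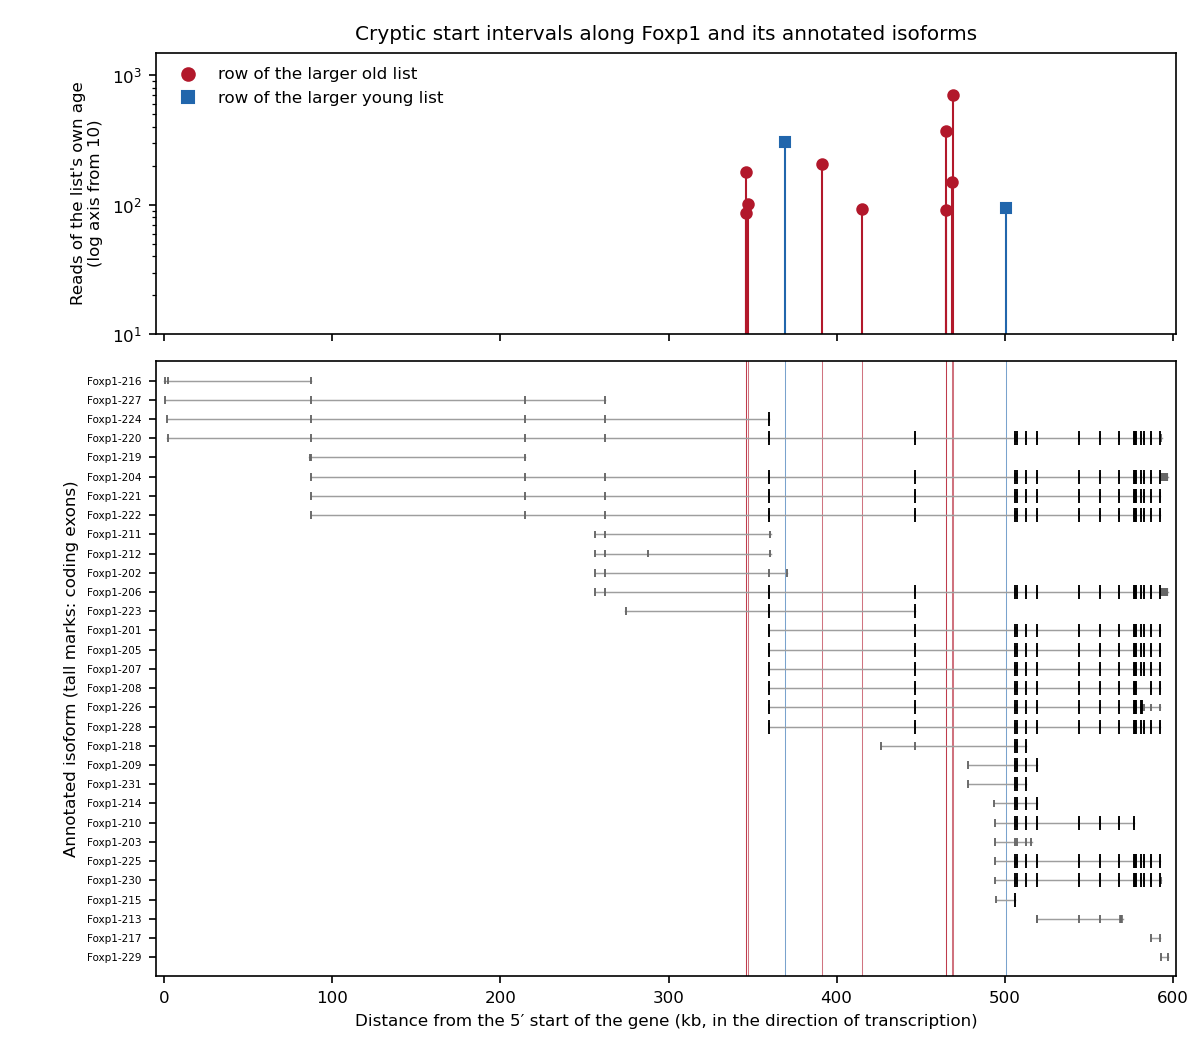
Positions of the 11 intervals of the larger lists along Foxp1 (x axis, kb from the 5′ start of the gene). The upper panel gives the reads of each interval's own age on a log axis from 10 and the lower panel the 31 annotated isoforms, with tall marks for coding exons. Old rows (circles) form a group of 3 near 346 kb, single rows at 391 and 415 kb and a group of 4 between 465 and 469 kb, and young rows (squares) lie at 369 and 501 kb.

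The larger lists give a fold per interval and no counts, so the reads stated here for each age were recovered from the folds, which all resolve into whole reads on an old side and a young side. Fold differences are ratios of these reads scaled by the relative depth of the sides.

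Old rows 1 to 3 stood 5′ of the whole coding sequence. They lay in intron 3 of Foxp1-204, an intron of 97315 bp that leads into coding exon 1, within 1533 bp of each other. At old row 1 (99176470 to 99176619), old liver gave 86 reads and young liver 0, a difference of at least 30.1-fold when 0 is set to the floor of 3 reads that a count of 0 allows. At old row 2 (99176288 to 99176437), the counts were 179 and 0, at least 62.6-fold. Only 32 bp separated this pair, and neither had a young-side read. Old row 3 (99175087 to 99175236) differed from them, since young liver gave 9 reads there and old liver 101, 11.8-fold more (95% interval 5.96 to 26.5). It was the old row closest to the fold of 10 that bounds the list, with a deposited fold of 11.6. The start codon of the long frame lay 3′ of these 3 rows in all 7 coding isoforms that span them.

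The intron between coding exons 1 and 2, of 86793 bp in Foxp1-204, held intervals of both ages. At young row 1 (99153617 to 99153766), young liver gave 308 reads and old liver 7, 41.9-fold more in young liver (20.1 to 105). Its nearest exon edge, in the processed transcript Foxp1-202 without a coding sequence, was 1204 bp away, the shortest such distance among the 11 intervals. Old row 4 (99131229 to 99131378) lay 22388 bp further along, centre to centre, where 207 old-side reads met 1 young-side read, 217-fold more in old liver (38.6 to 8622). A single young-side read leaves the upper end of that interval poorly bounded. At old row 5 (99107351 to 99107500), old liver gave 93 reads and young liver 0, at least 32.5-fold. Isoforms read through this intron join coding exon 1 to the glutamine exon, and the remaining 15 coding exons lay 3′ of these 3 intervals.

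The intron between coding exons 2 and 3, of 59188 bp, held the group of 4 with the most reads. Old row 9 (99053280 to 99053429) was the most read, at 705 for old and 31 for young liver, 23.9-fold more in old liver (16.7 to 35.4), and 94.9% of the larger old list had fewer old-side reads. Next came old row 7 (99057243 to 99057392), at 370 and 3, 129-fold more (44.0 to 631). The other two, both at 0 in young liver, were old row 8 (99054177 to 99054326), with 150 old-side reads and at least 52.5-fold, and old row 6 (99057433 to 99057582), with 92 and at least 32.2-fold. A gap of 40 bp lay between old rows 6 and 7. The 4 rows spanned 4303 bp, all beyond the glutamine exon and with 14 of 16 coding exons 3′ of them. Young row 2 (99021680 to 99021829), further along the same intron, gave 94 reads in young liver and 7 in old liver, 12.8-fold more in young liver (5.97 to 32.7). Its deposited fold of 12.6 put it, like old row 3, close to the fold that bounds the lists.

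**Figure D2:**
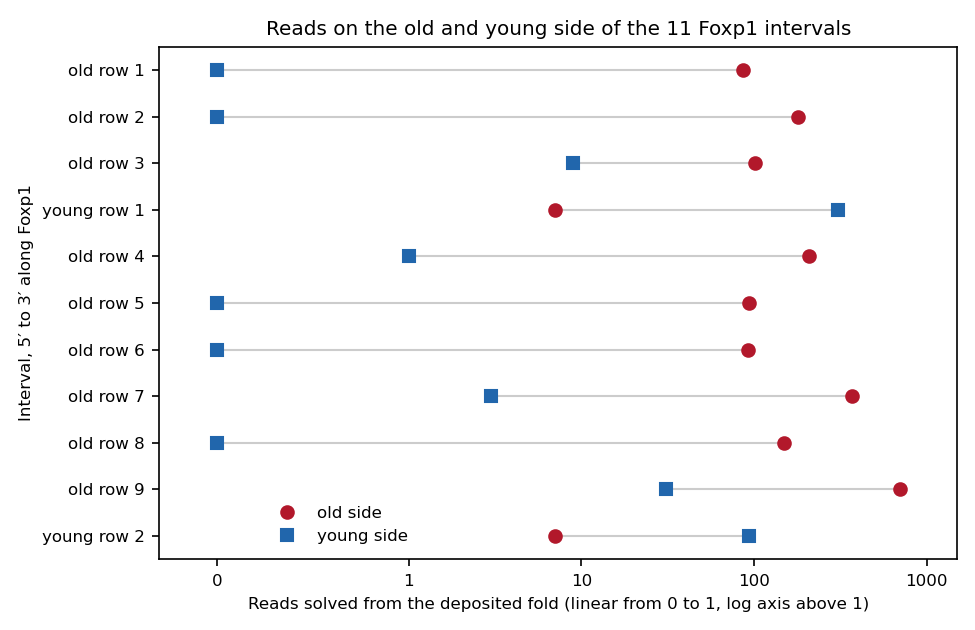
Reads on the old side (circles) and young side (squares) of the 11 Foxp1 intervals, ordered from 5′ to 3′; the axis is linear from 0 to 1 and logarithmic above. Old-side reads run from 86 to 705 in the old rows, 5 of which sit at 0 on the young side, while both young rows keep 7 old-side reads.

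Among the old rows 5 of 9 had 0 reads on the young side, against 36.0% of the whole larger old list, and among the young rows 0 of 2 had 0 on the old side, against 25.2% of the larger young list. These reads come from the contrast that selected the lists, so nothing is read from the counts. Old-side reads of the 9 rows had a median of 150, between 86 and 705, where the whole list had a median of 159.5 with quartiles of 107 and 280. Fewer transcribing cells of a type and less nascent RNA per cell cannot be told apart in such bulk values.

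The order of the rows by deposited fold was not their order by reads. Old row 2 carried the highest deposited fold, 1532, on 179 reads, while old row 9 with 705 reads carried 23.8. Old row 7, with 370 reads and 3 on the other side, carried 124, and old row 4, with 207 reads and 1 on the other side, carried 194. In rows with 0 young-side reads the fold is the old-side reads times 8.55 plus 1, so that old rows 1, 5, 6 and 8 carried folds of 737, 797, 788 and 1284 in the order of their reads. The median over the 9 old rows was 737 as deposited and 32.5 as a ratio of reads with the floor of 3.

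**Figure D3:**
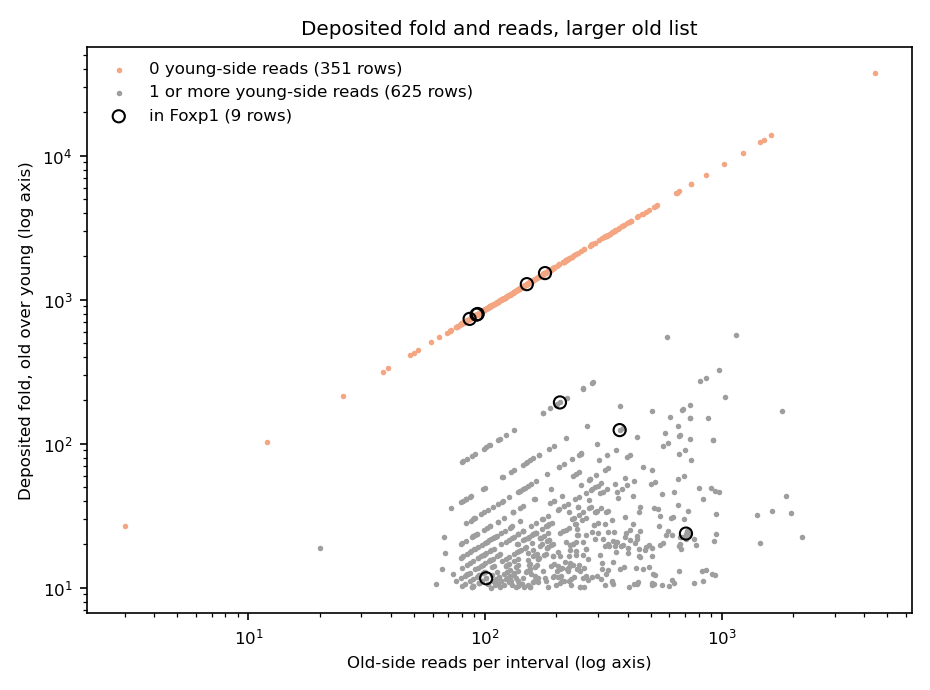
Deposited fold against old-side reads for the 976 intervals of the larger old list, both on log axes. The 351 intervals with 0 young-side reads form the upper line and the 625 others lie below it; the rings mark the 9 Foxp1 rows, of which 5 sit on the line, including the row with the highest fold at 179 reads, and the row with 705 reads sits below it at a fold of 23.8.

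The intervals were then set against the 22 distinct starts of the 31 annotated Foxp1 transcripts. Old rows lay 8896 to 31714 bp from the nearest annotated start, with a median of 12859 bp, where the whole list had a median of 13119 bp. Young rows lay 6236 and 9326 bp away, against a list median of 12872 bp. In each case the nearest start belonged to Foxp1, and no other annotated gene of any type held a centre. For 8 of 9 old rows the nearest start lay 3′ of the row, so that the row stood ahead of it in the direction of Foxp1 transcription, and old row 4 was the exception. The share over all old-list rows in protein-coding genes was 50.5%. For the young rows the count was 0 of 2, against 41.5% of young-list rows in protein-coding genes. The lists give no strand, so whether the captured RNA ran with Foxp1 or against it is not known here. Rows of 1 gene share its starts and are not independent, so the 8 of 9 describe this gene only.

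Some of those starts mark the beginning of the coding sequence and no more. The 6 transcripts annotated from 99163018, among them Foxp1-201, begin at the first base of their start codon, with no 5′ untranslated region. That position was the nearest start for old rows 1 to 4 and young row 1. With such models left out, a setting chosen after the positions were seen, the nearest start of old rows 1 to 3 moved to 99248336 (Foxp1-223), 71791 to 73174 bp away and 5′ of them. The nearest start of young row 1 moved to 99096205 (Foxp1-218), 57487 bp away and 3′ of it. That of old row 4 moved to the same start, 35099 bp away and 3′ of it. The count of rows with the nearest start 3′ of the row was then 6 of 9 for old rows, beside 460 of 915 over the list, and 1 of 2 for young rows, beside 167 of 400. Old row 5 kept the start of Foxp1-218, which it preceded by 11221 bp, and old rows 6 to 9 the start of Foxp1-209 at 99044459, which they preceded by 8896 to 13049 bp.

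The RefSeq table of GRCm38.p6, the assembly of mm10, gave promoters for 3 Foxp1 starts, of which the internal pair stand on either side of the old rows and are shown for that reason. The 5′ one starts at 99266515, 89970 bp ahead of old row 1, and the 3′ one at 99028298, beyond all 9 old rows and young row 1 and 6543 bp ahead of young row 2. The stretches printed here end before the first annotated exon base, and capitals mark each CG.
Promoter stretch at 99266515 (chr6:99266533-99266765, minus strand): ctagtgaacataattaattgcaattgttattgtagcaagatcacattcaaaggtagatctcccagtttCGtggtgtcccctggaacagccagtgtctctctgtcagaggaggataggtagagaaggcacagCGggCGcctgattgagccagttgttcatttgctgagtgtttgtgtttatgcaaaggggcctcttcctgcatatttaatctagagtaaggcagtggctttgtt
Promoter stretch at 99028298 (chr6:99028314-99028548, minus strand): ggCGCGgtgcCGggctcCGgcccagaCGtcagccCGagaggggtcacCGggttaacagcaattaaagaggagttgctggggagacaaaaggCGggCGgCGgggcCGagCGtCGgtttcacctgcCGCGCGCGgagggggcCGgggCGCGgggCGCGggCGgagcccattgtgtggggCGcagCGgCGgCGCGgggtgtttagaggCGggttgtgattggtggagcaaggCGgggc

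The promoter at 99028298, next to the annotated start of the short isoform Foxp1-230, held 44 CG in its 300 bases. Of 32851 RefSeq promoters, 97.8% held fewer, and the median was 7. The promoter at 99266515 held 5 CG, and 38.0% of promoters held fewer. Searched on both strands, GGGCGG and CCAAT occurred in the promoter at 99028298, and in 35.7% and 37.4% of all promoters, and neither occurred at 99266515. TATAAA, present in 13.6% of promoters, occurred in none of the Foxp1 promoters. The bases under the intervals themselves were not analysed here.

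Spacing within the gene was uneven. Old rows within 500 bp of another row of their list, which made up 26.6% of the larger old list, numbered 4 of 9 and formed the close pairs of rows 1 and 2 and of rows 6 and 7, with centres 182 and 190 bp apart. The young rows, 131937 bp apart, had none, where the share in the young list was 14.6%. Joining rows within 500 bp left 7 old loci. In order along the gene, young row 1 fell between old rows 3 and 4, at 21470 and 22388 bp from their centres, and young row 2 was the last of the 11, 31600 bp beyond old row 9. No old row overlapped a young row, but the lists were selected on opposite folds of at least 10, so nothing is read from this. How wide a window the reads of each row were counted over is not given in the labels, so whether neighbouring rows such as 1 and 2 share reads was not tested.

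The stricter lists, whose names add a threshold of 10 RPM (depth-scaled reads) and a tag NoInt that was not interpreted here, are short and carry no fold. That of old liver held old rows 2 and 4 with the same coordinates, and no further interval in the gene. Thus 2 of 9 old rows stood in it, against 21.9% of the larger old list. The rows with the most old-side reads, 7 and 9, were not among them. Neither young row stood in the stricter young list, which holds only 10 rows beside 425 in the larger young list, so nothing is read from this.

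Foxp1 was among the host genes with the most old-list rows, at a density near the median of those host genes. Of 608 protein-coding genes that held an old-list row, 412 held 1 and only 3 held 9 or more. Msra, a methionine sulfoxide reductase gene, held 12, and Nfatc1, a lymphocyte transcription factor gene, held 9. Foxp1 spans 597384 bp, where the median host gene spans 88347 bp, so its 9 rows amounted to 1.51 per 100 kb. The median over host genes was 1.57, 311 host genes were denser, and Msra and Nfatc1 reached 3.60 and 8.42. Genes without a row are left out of that median, and in hosts with 1 row the density follows from length alone. Of the 157 other genes at least as long as Foxp1, 18 held an old-list row and 15 a young-list row. The highest old-list count among them was 8. Foxp1 was also 1 of 32 old-list hosts, or 5.26%, that held young-list rows, a share over hosts of all lengths.

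The genes most like Foxp1 in rows of the larger old, larger young and stricter old lists were Msra, Nsmce2, Ano6 and Arhgef3, at Euclidean distances of 0.811, 1.11, 1.30 and 1.39 in log2(rows + 1) over these 3 lists. Msra held 12, 1 and 3 rows. Nsmce2, a gene of the SMC5/6 DNA repair complex, held 5, 1 and 1, and the scramblase gene Ano6 held 4, 1 and 1. Arhgef3, a guanine nucleotide exchange factor gene, held 3, 2 and 3, and was alone among the 4 in matching the 2 young rows of Foxp1. Its young rows had 124 and 128 young-side reads, where those of Foxp1 had 308 and 94.

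**Figure D4:**
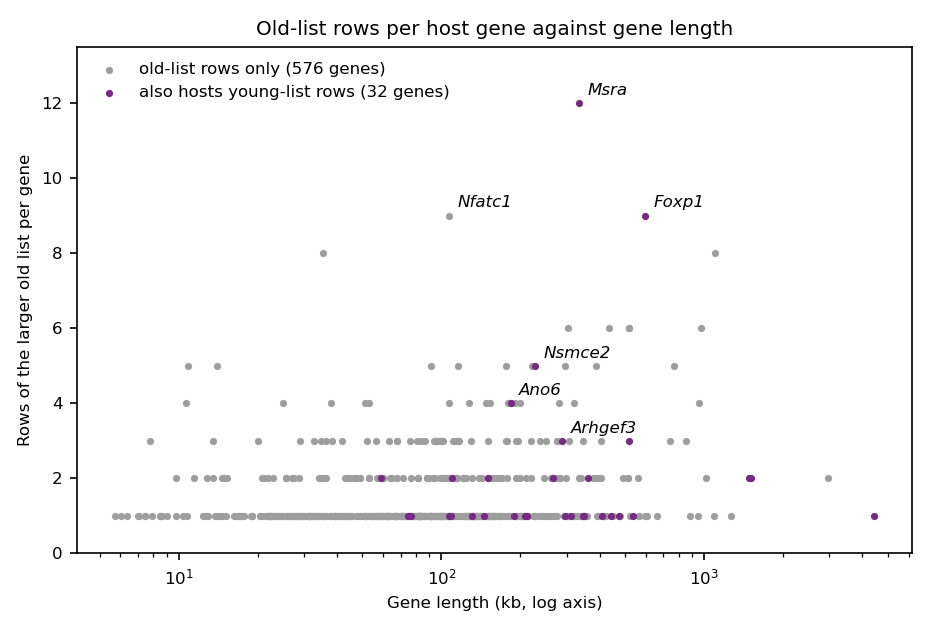
Rows of the larger old list per host gene against gene length (kb, log axis) for 608 genes, of which the 32 that also held young-list rows are coloured. Foxp1, with 9 rows over 597 kb, sits among the longest and most occupied genes; Msra with 12 and Nfatc1 with 9 reach as high at shorter length.

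Related genes were read from lists of the forkhead family, of FOXP1 partners, of the B lymphocyte programme and of cell types, which were written with earlier results of these data known and so describe without supporting anything. Protein-coding genes held an old-list row in 2.77% of cases and a young-list row in 1.38%, or in 3.73% and 1.86% of the genes with a base far enough from annotated starts. The differences between lists were not tested, and the shares were not matched for gene length. Median gene length was 5588 bp for the other forkhead genes and 57728 bp for the FOXP1 partners. It was 28878 bp for the B lymphocyte programme and 55757 bp for the hepatocyte factors. Among the 157 other genes at least as long as Foxp1, 18 held an old-list row and 15 a young-list row. Of 43 other forkhead genes 1 held an old-list row, a share of 2.33%, near the 2.77% over all protein-coding genes. It was Foxn1, a regulator of thymic epithelium, with 187 reads against 7. A young-list row was held by 0 of the 43, beside 1.38% over all. The closest relatives Foxp2, Foxp3 and Foxp4, the liver factors Foxa1, Foxa2 and Foxa3, and Foxo1 held none. Most of the family is short, and 25 of the 43 have any base as far from annotated starts as the closest interval of the larger lists, 3577 bp.

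Of 26 genes of FOXP1 partners and corepressors, 24 of which have such a base, 5 held old-list rows and 2 young-list rows. These are shares of 19.2% and 7.69%, beside 2.77% and 1.38% over all protein-coding genes. Mta3, a subunit gene of the NuRD repressor complex, held 3 old-list rows with 69 to 1445 reads. Ctbp2, a corepressor gene, held 1 with 152 reads against 0. Sox5 held 4 and Nfatc1 and Nfatc2 held 9 and 1. On the young side Gatad2a held 1 row and Rbbp4, which encodes a histone chaperone of the NuRD complex, held 2 rows with 142 and 353 reads.

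Of 20 genes of the B lymphocyte programme, 16 of which have a base that far from starts, 7 held old-list rows and 0 young-list rows. Their shares of 35% and 0% stand beside 2.77% and 1.38% over all protein-coding genes. Bcl11a held 3, or 2 loci when joined within 500 bp, and its most read row had 701 old-side reads against 8. Bach2 held 3, and its most read row had 625 against 61, only 10.8-fold more (8.26 to 14.2). Ikzf1 and Ikzf3, of the Ikaros family, held 2 each, and Ebf1, Tcf3 and Irf4 held 1 each. The Ebf1 row had 185 reads against 8. Of 25 hepatocyte transcription factor genes, 21 of which have a base that far from starts, 1 (Tcf7l2) held an old-list row. That is a share of 4% beside the 2.77% over all protein-coding genes. Young-list rows were held by 5, among them Hnf4a, Nfib and Rora, a share of 20% beside 1.38%. Foxp1 held rows of both ages. Of 19 lymphocyte marker genes 3, or 15.8%, held old-list rows (Ebf1, Ikzf1 and Ikzf3, counted above too), and of 8 macrophage markers 0 did. Of these markers, 14 and 7 have a base that far from starts, and with lists this short nothing is read from the 0. The lists hold no expression values, so marker levels were not measured, and the part of cell makeup in the Foxp1 rows was not tested.

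The nearest intervals outside the gene on chromosome 6 were distant. On the 3′ side the next old-list row lay 1695995 bp beyond the gene, in Arl6ip5, with 120 reads against 4, and on the 5′ side 17170966 bp away in Tmem72, with 110 against 5. The next young-list rows lay 4294200 bp away on the 3′ side, in Lrig1, and 13619243 bp away on the 5′ side, in Setd5. The protein-coding neighbours of Foxp1, Eif4e3 on the 5′ side and Gm765 on the 3′ side, held none. Inside the gene the outermost intervals were 346176 bp from its 5′ end and 96417 bp from its 3′ end.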

How the data were processed

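The values come from 4 pooled peak lists of intervals of 150 bp. The larger lists carry a fold per interval, a ratio that the authors deposited, while in the stricter lists the score column, as deposited, is 0 throughout and only positions were used. Tools named in the submitters' processing notes are HOMER, bedtools 2.27.1-65, SAMtools 1.1, BWA 0.7.10 and cutadapt 2.10. How the authors called, pooled and scaled the intervals is not stated there. The strand column is plus throughout and was ignored.

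Folds were solved for reads with Python 3.11.15: all 976 old and 425 young folds had 1 solution in whole reads within 1e-07, with 1 added to each side and up to 1000 reads tried on the other side. A read was worth 8.55 for old liver and 8.15 for young liver, a relative depth of 0.953 if both were scaled alike, and total depth is unknown. Ratios were scaled by it, with 95% Clopper-Pearson intervals (SciPy 1.17.1) that cover counting error only (reads without molecular identifiers are not independent molecules), and a floor of 3 reads where a side had 0. The solver was tested on simulated data. Positions were read against GENCODE M21 (GRCm38), 1-based. The rule for named genes took Foxp1, listed genes that host an interval, the 4 genes nearest in log2(rows + 1), hosts with more old rows, and the neighbours; Nfatc1, genes just outside and listed genes without rows were named after their values were seen. The members and gene lists were chosen with earlier results of these data known.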

Additional observations from a re-analysis of the deposited data

How the results depend on the processing

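The counts of 9 old-list and 2 young-list rows in Foxp1 were the same with any base of an interval in the gene body and with the longest protein-coding transcript. The stricter lists held 2 and 0 rows. Rows at or above the median fold of their list numbered 7 and 1, and rows at or above the median of reads, a setting chosen after seeing the data, 4 and 1. Joining rows within 5 kb left 4 old loci in place of 7. The median read ratio of old rows was 31 without scaling and 737 as the deposited fold, which by its construction puts the other side at the added constant where it has 0 reads. Median distances to starts were 12859 bp with the starts of protein-coding or of Foxp1 transcripts alone and 13049 bp without models that begin at their start codon. Comparisons by GC and CpG under the intervals were not run, since the bases under them were not read here. No paired analysis was possible because each age has 1 pooled list, and for the same reason no replicate could be left out. Rows with 1 to 9 reads on the lower side have wide intervals, and old row 3 and young row 2 have lower bounds under 10.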
